A study of Homo sapiens with 18 samples.

Results

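Antigen presentation by MHC class I was followed through 9 genes across 6 groups of MDA-MB-231 spheroids: the heavy chains HLA-B, HLA-C, HLA-E and HLA-F, their light chain B2M, the peptide transporter subunits TAP1 and TAP2, the peptide-loading factor TAPBP, and the transcriptional activator NLRC5. The members were chosen by gene symbol, and all 9 of 9 were found once each among the 62710 genes of the table and passed the filter on low counts, which kept 17030 genes. MDA-MB-231 is an established human triple-negative breast cancer cell line with mesenchymal features. The groups cross 2 genotypes with 3 conditions. Wildtype spheroids are called control here, and MMP14-KO spheroids are called targeted in the plots. Each genotype was taken either straight from hanging droplets, where spheroids had formed for 5 days, or from a collagen gel 24 h or 48 h after embedding, with 3 libraries per group. The MMP14 protein is a collagen-cleaving protease of the cell surface. The sources used here do not say whether the MMP14-KO cells are 1 clone or a pool, nor whether the 3 libraries of a group came from separate cultures, so p-values measure the spread between these libraries, which may be technical. Spheroids in collagen were digested with collagenase at 37 °C before RNA was extracted and spheroids in droplets were not, so embedding and digestion cannot be told apart in any comparison of collagen with droplets.

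MHC class I molecules display peptides from proteins of the cell at its surface, where CD8 T cells read them. Proteasomes cut proteins into peptides, the TAP1-TAP2 heterodimer pumps these into the endoplasmic reticulum, and tapasin, the product of TAPBP, holds the empty heavy chain and B2M beside the transporter until a peptide is bound. HLA-B and HLA-C are classical heavy chains, HLA-E presents leader peptides of other class I chains to receptors of natural killer cells, and HLA-F is a weakly expressed non-classical chain. NLRC5 has no DNA-binding domain of its own and acts with RFX and NFY factors at class I promoters, while interferons act on many genes of the pathway through STAT and IRF factors.

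The upstream parts of 5 promoters are printed because these genes carry the main patterns below: TAP1 and TAP2 moved in opposite directions in collagen, TAPBP differed most between genotypes in droplets, B2M did not pass the test between genotypes, and HLA-B stands for the heavy chains. They are RefSeq sequences of GRCh38.p14, 5′ to 3′ on the strand of the gene, and give the 250 bases before the transcription start: chr6:32853705-32853954 (minus strand) for TAP1, chr6:32838740-32838989 (minus) for TAP2, chr6:33314079-33314328 (minus) for TAPBP, chr15:44711267-44711516 (plus) for B2M and chr6:31357180-31357429 (minus) for HLA-B. Capitals mark matches, in either orientation, to the core of the interferon-stimulated response element (ISRE), searched as GAAA, any 2 bases and GAAA, or in HLA-B to an NF-kB motif, searched as GGG, any 2 bases and TTCCC. For TAP1 the first of its windows in the table is shown. Where capitals run longer than 10 bases, overlapping matches were joined.
TAP1: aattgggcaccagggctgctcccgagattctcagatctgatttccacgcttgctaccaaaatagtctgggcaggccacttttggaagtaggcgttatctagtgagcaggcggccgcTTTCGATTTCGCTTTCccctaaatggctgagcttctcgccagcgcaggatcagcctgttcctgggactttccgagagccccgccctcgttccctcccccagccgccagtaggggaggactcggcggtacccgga
TAP2: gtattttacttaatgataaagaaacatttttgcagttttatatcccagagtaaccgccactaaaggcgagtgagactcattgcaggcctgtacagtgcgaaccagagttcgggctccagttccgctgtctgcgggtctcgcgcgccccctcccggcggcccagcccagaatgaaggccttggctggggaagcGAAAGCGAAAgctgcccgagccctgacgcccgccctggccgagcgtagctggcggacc
TAPBP: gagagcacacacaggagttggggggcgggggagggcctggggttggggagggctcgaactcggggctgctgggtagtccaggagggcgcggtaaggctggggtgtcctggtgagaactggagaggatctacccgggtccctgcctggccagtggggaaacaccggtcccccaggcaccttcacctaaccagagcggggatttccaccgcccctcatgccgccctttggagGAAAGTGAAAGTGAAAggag
B2M: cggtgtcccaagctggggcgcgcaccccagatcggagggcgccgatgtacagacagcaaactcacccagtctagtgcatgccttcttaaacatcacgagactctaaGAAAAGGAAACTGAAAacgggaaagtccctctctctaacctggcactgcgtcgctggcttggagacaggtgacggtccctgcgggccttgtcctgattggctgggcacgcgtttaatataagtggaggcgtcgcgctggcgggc
HLA-B: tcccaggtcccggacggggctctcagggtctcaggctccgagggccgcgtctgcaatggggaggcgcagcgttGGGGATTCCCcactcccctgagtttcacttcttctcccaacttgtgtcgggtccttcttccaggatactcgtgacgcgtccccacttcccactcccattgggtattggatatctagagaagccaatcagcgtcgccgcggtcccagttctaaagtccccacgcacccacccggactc

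The promoter table held windows for 7 of the 9 members, without HLA-E and NLRC5, and each window covered 250 bases before to 50 bases after the start. Searched on both strands, the ISRE core was found in 5 of the 7: TAP1 at bases -134 to -119 and TAPBP at -20 to -5, each with overlapping matches, B2M at -144 to -129, also overlapping, TAP2 at -58 to -49 and HLA-F at -156 to -147. No exact match was in the windows of HLA-B and HLA-C. The search does not count elements that differ from these letters, so it cannot show that an ISRE is absent. Over all 35116 promoter windows of the table, 3.57% held it. The NF-kB motif was found in the HLA-B window at -177 to -168 and is in 2.17% of all windows. CCAAT, the letters of the Y box bound by NFY, is in 34.6% of all windows and TGACG, letters found in CRE motifs, in 24.6%, and HLA-B, HLA-C and B2M held both. The sequences are those of the reference genome and not read from this cell line, and a match describes letters and no binding.

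**Figure D1:**
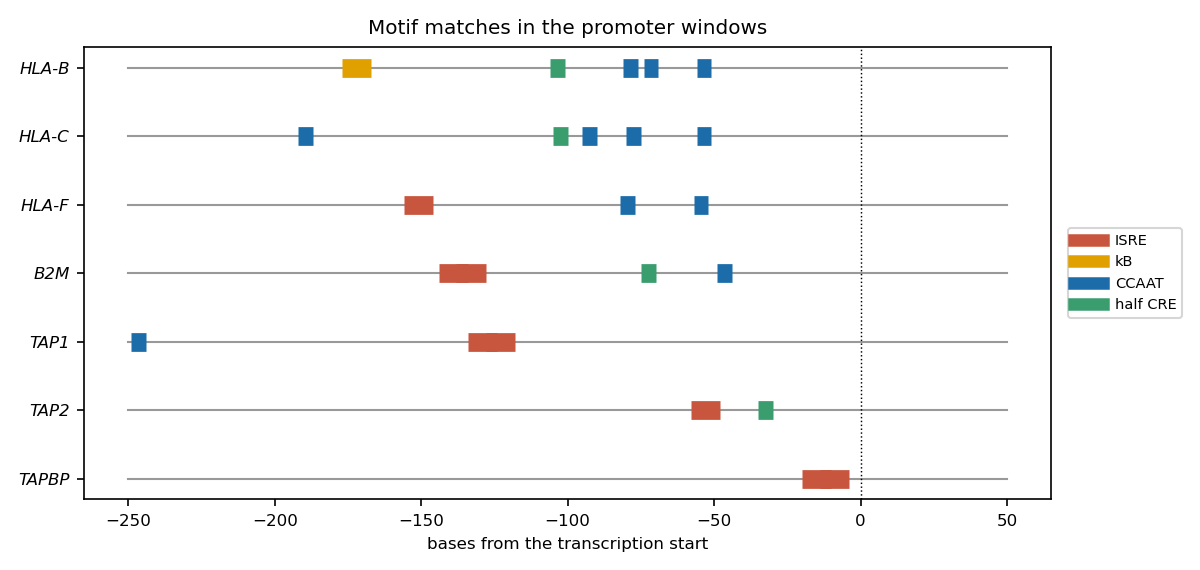
Motif matches in the promoter windows of the 7 members in the promoter table. The horizontal axis gives bases from the transcription start and each row is 1 gene, with boxes for the ISRE core, the NF-kB motif (kB), CCAAT and TGACG on either strand. Exact matches to the ISRE core lie in the windows of HLA-F, B2M, TAP1, TAP2 and TAPBP and in neither the HLA-B nor the HLA-C window.

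Library depth ranged from 19819401 to 33352163 counts, and the 9 members together took between 0.2676% and 0.4949% of the counts of a library. MMP14, the targeted gene, was at 2045 ± 178, 1819 ± 139 and 1447 ± 143 CPM (counts scaled to library size with TMM factors; mean ± SD, n = 3) in control droplets, 24 h and 48 h. In the MMP14-KO groups it was at 154.5 ± 5.2, 153 ± 11.6 and 148 ± 13.4 CPM. The 4 mesenchymal markers VIM, CD44, EGFR and AXL summed to between 3200 and 5950 CPM, and the 4 hormone receptor and epithelial genes to between 4.46 and 11 CPM. Of 6 leukocyte markers, whose RNA would bring class I transcripts with it, CD3E had no read in any group, PTPRC was below 1 CPM in every group mean, and CD14 and LYZ fell in collagen. The list summed to 30.3 to 34.4, 11.6 to 18.2 and 10.1 to 12.3 CPM in control droplets, 24 h and 48 h. It summed to 36.7 to 44.3, 17.4 to 19.4 and 15.4 to 19.3 CPM in the same MMP14-KO conditions. Its part in the results below was not tested. The 4 fibroblast markers summed to between 13.8 and 36.9 CPM and the 4 endothelial markers to between 16.7 and 41.7 CPM. COL1A1 made up most of the fibroblast sum, and PDGFRA and DCN were below 1 CPM in every library. PECAM1 and KDR made up most of the endothelial sum, and VWF and CDH5 were below 1 CPM in every library. Libraries correlated at 0.987 to 0.991 (Pearson r of log2 CPM over genes) within groups and at 0.952 to 0.988 between them. In bulk RNA, fewer cells that express a gene and less of its RNA per cell cannot be told apart.

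When control spheroids were placed in collagen, 8 of the 9 members fell and TAP2 rose. After 24 h, 8 fell and 1 rose, where 28.7% of all tested genes fell and 27.8% rose, and the median member log2 fold change was -0.56 beside -0.004 over all tested genes. After 48 h, 8 again fell and 1 rose against 27.5% and 27.7% of tested genes, with a median of -0.63. In MMP14-KO spheroids the counts were the same, 8 lower and 1 higher after 24 h, against 25.7% lower and 25.5% higher over all genes, and 8 lower and 1 higher after 48 h, against 23.6% and 25.8%, with medians of -0.58 and -0.57. The comparisons at 24 h and 48 h share their droplet libraries. All tests are edgeR quasi-likelihood tests with Benjamini-Hochberg adjustment over 17030 genes and a threshold of 0.05, and every log2 fold change of a member is given with its SE.

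**Figure D2:**
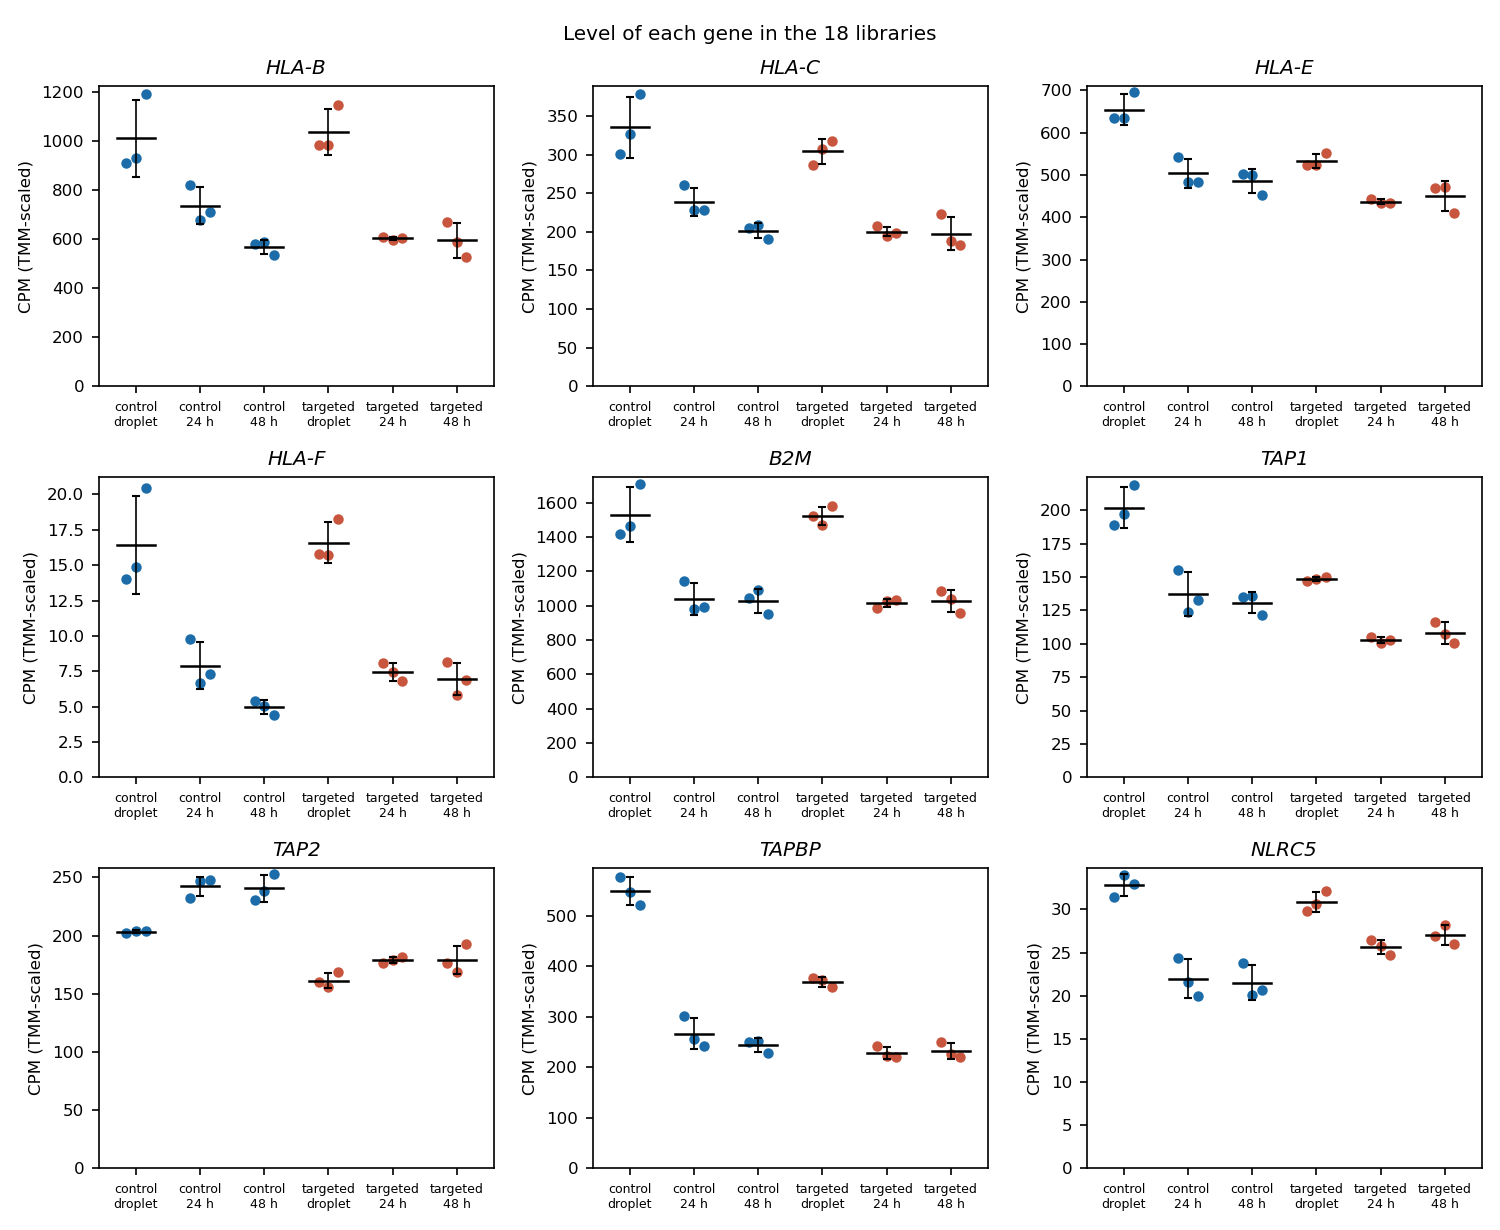
Level of each member in each library, in CPM on a linear axis from 0. Points are libraries, horizontal lines are group means and bars are SD (n = 3), with control in blue and targeted (MMP14-KO) in red. The droplet libraries stand above the collagen libraries of the same genotype for 8 genes, and for TAP2 they stand below them.

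Among the classical heavy chains, HLA-B (chr6:31269491-31357188, minus strand, GRCh38 with GENCODE 29) was at 913, 933 and 1193 CPM in the control droplet libraries, at 822, 678 and 712 CPM at 24 h and at 579.8, 588 and 537 CPM at 48 h. The 3 control conditions did not overlap, and the level stepped down from droplet to 24 h to 48 h. The change from droplets was -0.46 ± 0.104 (adjusted p = 0.00119) at 24 h and -0.83 ± 0.104 (adjusted p = 3.44e-06) at 48 h, when 56.1% of the droplet level was left. In MMP14-KO spheroids HLA-B was at 984, 984 and 1148 CPM in droplets, 609, 597 and 605 CPM at 24 h and 672, 589 and 529 CPM at 48 h. The full fall was present at 24 h, at -0.78 ± 0.104 (adjusted p = 9.61e-06), and the 24 h and 48 h libraries overlapped.

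HLA-C (chr6:31268749-31272130, minus strand) followed HLA-B at a lower level. Its control libraries held 300.1, 326 and 379 CPM in droplets, 260.1, 228 and 228 CPM at 24 h and 205, 209 and 191 CPM at 48 h. The MMP14-KO libraries held 286, 307 and 318 CPM, then 207, 195 and 199 CPM, then 223, 188 and 183 CPM. Droplet and collagen libraries did not overlap in either genotype, and the fall was -0.49 ± 0.0808 and -0.73 ± 0.0813 in control and -0.60 ± 0.0812 and -0.62 ± 0.0813 in MMP14-KO spheroids at 24 h and 48 h. The ratio of HLA-B to HLA-C within a library stayed between 2.82 and 3.61 in all 18.

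HLA-E (chr6:30489467-30494205, plus strand) fell least of the 4 heavy chains. Control libraries held 634, 634 and 696 CPM in droplets, 544, 485 and 484 CPM at 24 h and 502, 501 and 452 CPM at 48 h. MMP14-KO libraries held 524, 523 and 553 CPM, then 444, 433 and 433 CPM, then 469.9, 470.35 and 410.3 CPM. The fall was -0.38 ± 0.0617 and -0.43 ± 0.0617 in control spheroids and -0.29 ± 0.0617 and -0.25 ± 0.0617 in MMP14-KO spheroids, and collagen and droplet libraries of a genotype did not overlap. As HLA-B fell further than HLA-E, the ratio of HLA-B to HLA-E went from 1.54 ± 0.15 in control droplets to 1.17 ± 0.0161 at 48 h, and from 1.95 ± 0.113 to 1.32 ± 0.0945 in MMP14-KO spheroids (mean ± SD, n = 3, no test).

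HLA-F (chr6:29722775-29738528, plus strand) was the weakest heavy chain and fell furthest. It was at 14.02, 14.9 and 20.4 CPM in control droplets, 9.77, 6.65 and 7.27 CPM at 24 h and 5.40, 5.05 and 4.40 CPM at 48 h. The last group held 30.1% of the droplet level, a log2 fold change of -1.73 ± 0.16 (adjusted p = 1.56e-08), after -1.07 ± 0.15 at 24 h. In MMP14-KO spheroids the 3 conditions held 15.8, 15.7 and 18.3 CPM, then 8.05, 7.47 and 6.81 CPM, then 8.12, 5.82 and 6.89 CPM, with changes of -1.16 ± 0.152 and -1.25 ± 0.154. Summed over HLA-B, HLA-C, HLA-E and HLA-F, heavy-chain RNA went from 2019 ± 234 CPM in control droplets to 1488 ± 128 at 24 h and 1260 ± 66.1 at 48 h, and in MMP14-KO spheroids from 1893 ± 125 to 1248 ± 18.1 and 1251 ± 122 CPM.

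B2M (chr15:44711487-44718877, plus strand), the light chain that all these heavy chains pair with, had the highest CPM of the 9. Control libraries held 1416.5, 1465 and 1712 CPM in droplets, 1146, 979.8 and 993 CPM at 24 h and 1044, 1089 and 949 CPM at 48 h. MMP14-KO libraries held 1523, 1469.5 and 1578 CPM, then 988, 1026 and 1034 CPM, then 1087.5, 1037 and 959 CPM. In all 4 comparisons the gene fell to between 66.7% and 67.9% of its droplet level, with log2 fold changes between -0.58 and -0.56 and an SE of 0.0725.

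The transporter subunits went apart. TAP1 (chr6:32845209-32853978, minus strand) was at 189, 197 and 219 CPM in control droplets, 155, 124 and 133 CPM at 24 h and 135, 136 and 121 CPM at 48 h. In MMP14-KO spheroids it was at 147, 148 and 150.1, then 105, 101 and 103, then 117, 107.5 and 100.3 CPM. It fell by 0.56 ± 0.0721 and 0.63 ± 0.0724 on the log2 scale in control and by 0.53 ± 0.073 and 0.46 ± 0.073 in MMP14-KO spheroids, with no overlap of droplet and collagen libraries. TAP2 (chr6:32821833-32838780, minus strand) was at 202, 204 and 204 CPM in control droplets, 233, 247 and 248 CPM at 24 h and 230.2, 238.5 and 253 CPM at 48 h. Every control collagen library lay above every control droplet library, a rise of 0.25 ± 0.0517 (adjusted p = 0.00024) and 0.24 ± 0.0517 (adjusted p = 0.000396). In MMP14-KO spheroids TAP2 held 159.7, 155 and 169 CPM in droplets, 176, 179 and 181 CPM at 24 h and 176, 169 and 193 CPM at 48 h, a smaller rise of 0.15 ± 0.052 (adjusted p = 0.0198) and 0.15 ± 0.0521 (adjusted p = 0.0186). The difference in the size of the rise between genotypes did not pass the test (-0.10 ± 0.0733, adjusted p = 0.427, at 24 h and -0.09 ± 0.0734, adjusted p = 0.492, at 48 h). The ratio of TAP2 to TAP1 counts went from 1.012 ± 0.0722 to 1.79 ± 0.259 and 1.85 ± 0.206 in control spheroids. It went from 1.09 ± 0.037 to 1.74 ± 0.0536 and 1.67 ± 0.22 in MMP14-KO spheroids (mean ± SD, n = 3, no test).

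With 1 library left out, the log2 fold change of TAP2 in MMP14-KO spheroids stayed between 0.119 and 0.18 at 24 h. At 48 h it stayed between 0.085 and 0.18. Whether this rise passed the threshold depended on the libraries in the fit. At 24 h the rise passed in 2 of 6 such fits, and was lost without droplet replicate 1 or 2 or 24 h replicate 2 or 3 (adjusted p up to 0.107). At 48 h it passed in 3 of 6, and was lost without droplet replicate 1 or 2 or 48 h replicate 3 (adjusted p up to 0.211). The rise in control spheroids passed in 6 of 6 at both times. TAP2 lies inside a second gene of the same strand (ENSG00000250264), whose own row held 178 to 427 counts per library, 4.04% to 7.48% of TAP2's. For TAP2, 34.6% of the 151-base windows of the longest TAP2 transcript recur in other genes, so the counting had to split such reads. Summing both rows, an alternative chosen after seeing the data, changed no call of a member. Whether reads were counted by strand is not given in the sources used here. TAP1 shares 456 exonic bases with PSMB8-AS1 on the opposite strand. HLA-F shares 535 with HLA-F-AS1, 701 with the pseudogene AL645939.1 and 257 with the pseudogene RPL23AP1, and HLA-B shares 542 with the pseudogene AL671883.2. Reads of such pairs could not be told apart without strand. HLA-B and HLA-C share 35 exonic bases on the same strand. For members other than TAP2, no 151-base window of the longest reference coding transcript recurred in another gene. These are reference sequences, and how far the HLA alleles of this cell line differ from them, and so alter their counts, was not tested.

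TAPBP (chr6:33299694-33314387, minus strand) fell by more than 1 log2 unit in control spheroids. It was at 577, 548 and 521 CPM in control droplets, 301, 257 and 241 CPM at 24 h and 251, 252 and 227 CPM at 48 h. MMP14-KO spheroids started lower, at 377, 372 and 358 CPM, and reached 242, 223 and 221 CPM at 24 h and 249.8, 227 and 221 CPM at 48 h. The falls were -1.04 ± 0.0698 (adjusted p = 4.82e-11) and -1.17 ± 0.0701 (adjusted p = 8.35e-12) in control and -0.69 ± 0.0697 and -0.67 ± 0.0697 in MMP14-KO spheroids. NLRC5 (chr16:56989485-57083531, plus strand) was at 31.5, 34.0 and 32.9 CPM in control droplets, 24.4, 21.5 and 19.95 CPM at 24 h and 23.8, 20.1 and 20.6 CPM at 48 h. In MMP14-KO spheroids it was at 29.8, 30.7 and 32.2, then 26.5, 25.7 and 24.8, then 26.9, 28.2 and 25.97 CPM. Its fall was -0.58 ± 0.0757 and -0.61 ± 0.0764 in control and -0.27 ± 0.0753 (adjusted p = 0.005) and -0.19 ± 0.0754 (adjusted p = 0.0388) in MMP14-KO spheroids. The last of these passed in 2 of 6 fits that left out 1 library (lost without MMP14-KO droplet replicate 2 or 3 or 48 h replicate 1 or 3, adjusted p up to 0.11).

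**Figure D3:**
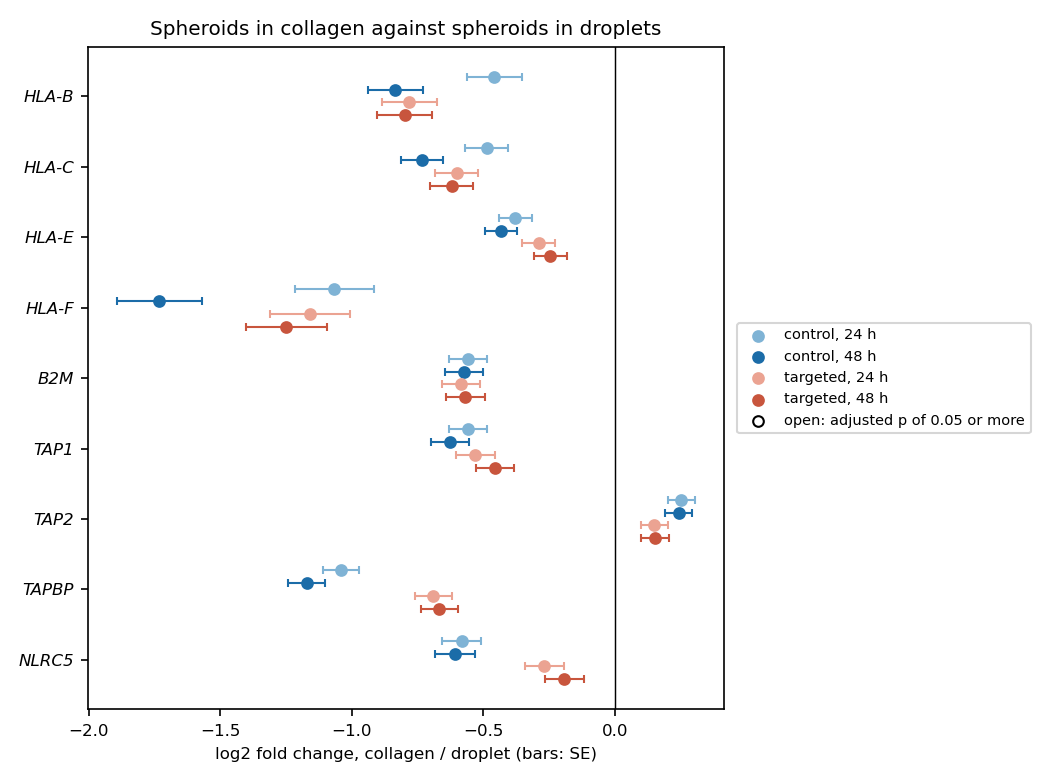
Change of each member from droplets to collagen. The horizontal axis is the log2 fold change from edgeR with its SE, in control (blue) and targeted, MMP14-KO (red) spheroids at 24 h (pale) and 48 h (dark). All 36 points passed the threshold, 32 of them below 0 and the 4 of TAP2 above 0.

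On the second day in collagen little moved. From 24 h to 48 h in control spheroids, 0 members rose and 2 fell, where 6.32% of tested genes rose and 6.88% fell: HLA-B by 0.38 ± 0.104 (adjusted p = 0.0243) and HLA-F by 0.66 ± 0.168 (adjusted p = 0.0116) on the log2 scale. HLA-C changed by -0.25 ± 0.0812 and did not pass in the main edgeR fit (adjusted p = 0.0519), and its groups did not overlap. It passed in 5 of 13 alternatives. These were DESeq2 (adjusted p = 0.0211) and edgeR with library-size scaling (0.0306), DESeq2 size factors (0.0441), no low-count filter (0.00171) or only the groups compared (0.0279). It passed in 0 of 6 fits that left out 1 library (adjusted p from 0.0589 to 0.195). The calls of HLA-B and HLA-F were both lost without control 24 h replicate 1, the library with the highest level of both in its group. Over the 6 fits that left out 1 library their adjusted p reached 0.0989 and 0.0595. Both calls were lost without control 48 h replicate 3 too, and HLA-B also without control 48 h replicate 1. In MMP14-KO spheroids 0 of 9 members passed with edgeR between 24 h and 48 h, 0 had an unadjusted p under 0.05, and 0 passed with DESeq2, where 2.07% of tested genes rose and 1.73% fell (54.5% of calls higher, 44.2% with library-size scaling). The 9 changes lay between -0.09 and 0.075. Whether the second day differed between genotypes was not tested.

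Between genotypes, the transporter genes were lower in MMP14-KO spheroids in all 3 conditions. In droplets 0 members were higher and 4 lower (TAPBP, TAP1, TAP2 and HLA-E), where 7.7% of tested genes were higher and 9.7% lower, and the median member log2 fold change was -0.14. At 24 h 1 was higher and 6 lower, against 13.7% and 15.7% of tested genes (46.5% of calls higher, 61.9% with library-size scaling), with a median of -0.22. At 48 h 2 were higher and 2 lower, against 14.4% and 15.1% (48.9% of calls higher, 64.3% with library-size scaling), with a median of -0.03.

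TAP1 was at 73.5%, 74.9% and 82.8% of the control level in droplets, at 24 h and at 48 h, with log2 fold changes of -0.45 ± 0.0719 (adjusted p = 0.000141), -0.42 ± 0.0731 (adjusted p = 0.000237) and -0.27 ± 0.0733 (adjusted p = 0.00791). TAP2 was at 79.2%, 73.8% and 74.5%, with -0.34 ± 0.0519, -0.44 ± 0.0519 and -0.42 ± 0.052 (adjusted p = 7.53e-05, 2.67e-06 and 3.76e-06). For both genes the 3 control and 3 MMP14-KO libraries did not overlap in any condition, and both passed in every fit that left out 1 library. Lower TAP1 in MMP14-KO droplets than in control droplets went with a fall on embedding in both genotypes, so the lowest TAP1 levels were those of MMP14-KO spheroids in collagen, whereas TAP2 was lowest in MMP14-KO droplets.

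TAPBP showed the largest genotype difference of the 9 in droplets, at 67.3% of control (-0.57 ± 0.0691, adjusted p = 3.63e-06), with all 3 MMP14-KO libraries (358 to 377 CPM) below all 3 control libraries (521 to 577 CPM). In collagen the groups overlapped, and the difference was -0.22 ± 0.0696 (adjusted p = 0.0208) at 24 h and -0.07 ± 0.0698 (adjusted p = 0.518) at 48 h. HLA-E was lower in droplets (-0.30 ± 0.0616, adjusted p = 0.00154) and at 24 h (-0.21 ± 0.0617, adjusted p = 0.0141), and its difference at 48 h was -0.11 ± 0.0618 (adjusted p = 0.203). HLA-B and HLA-C passed at 24 h, at -0.29 ± 0.104 (adjusted p = 0.0467) and -0.25 ± 0.0812 (adjusted p = 0.0236), and not in droplets or at 48 h, where HLA-B was at 0.04 and 0.07 and HLA-C at -0.14 and -0.03. At 24 h the calls of HLA-B, HLA-C, HLA-E and TAPBP were each lost without control 24 h replicate 1, the library with the highest level of all 4 in its group (-0.20, -0.19, -0.15 and -0.12 without it). Each was lost without MMP14-KO 24 h replicate 2 too. They were lost as well when libraries were scaled by their size alone (adjusted p = 0.0882, 0.0605, 0.0568 and 0.0793). Leaving out MMP14-KO 24 h replicate 3 ended those of HLA-B, HLA-C and TAPBP. HLA-B was lost also without control 24 h replicate 3 or MMP14-KO 24 h replicate 1, and so passed in 1 of 6 such fits.

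In contrast to TAP1 and TAP2, NLRC5 was higher in MMP14-KO spheroids at both times in collagen, and HLA-F at 48 h. NLRC5 was at 117% of control at 24 h (0.23 ± 0.077, adjusted p = 0.0298) and at 126% at 48 h (0.33 ± 0.0779, adjusted p = 0.00308), with no overlap at either time. The 48 h call passed in 6 of 6 fits that left out 1 library, and the 24 h call in 2 of 6 (lost without control 24 h replicate 2 or 3 or MMP14-KO 24 h replicate 1 or 2, adjusted p up to 0.177). In droplets the difference was -0.09 ± 0.0739 (adjusted p = 0.477). HLA-F differed by -0.08 ± 0.16 (adjusted p = 0.75) at 24 h, with overlapping groups. It was at 141% of control at 48 h (0.49 ± 0.173, adjusted p = 0.0372). The MMP14-KO libraries held 5.82 to 8.12 CPM and the control libraries 4.40 to 5.40 CPM. The call passed in 2 of 6 fits that left out 1 library (lost without control 48 h replicate 2 or 3 or MMP14-KO 48 h replicate 1 or 3, adjusted p up to 0.178). B2M did not pass in any condition: its differences were -0.01, -0.03 and 0.00, with 95% intervals of -0.16 to 0.14 in droplets, -0.18 to 0.12 at 24 h and -0.15 to 0.15 at 48 h.

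**Figure D4:**
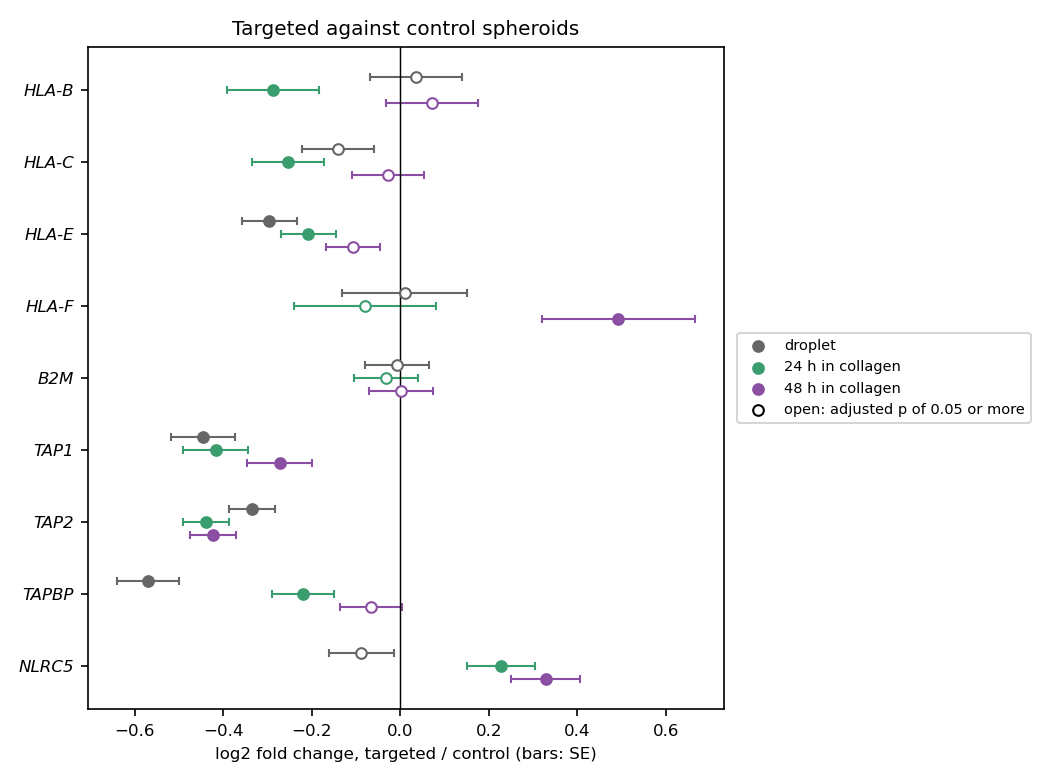
Difference of each member between genotypes. The horizontal axis is the log2 fold change of targeted (MMP14-KO) against control spheroids from edgeR with its SE, in droplets (grey), at 24 h (green) and at 48 h (purple), and open points did not pass the threshold. TAP1 and TAP2 lie below 0 in all 3 conditions, TAPBP moves from -0.57 towards 0, and NLRC5 and HLA-F lie above 0 at 48 h.

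The change on embedding itself differed between genotypes for TAPBP and NLRC5. For the change from droplets to 24 h, 1 member was more positive in MMP14-KO than in control spheroids and 0 more negative, against 3.32% and 4.09% of tested genes (44.8% of calls positive, 59% with library-size scaling). It was TAPBP, by 0.35 ± 0.098 (adjusted p = 0.0321). For the change to 48 h, 2 were more positive and 0 more negative, against 4% and 2.78% (59% of calls positive, 73.9% with library-size scaling). They were TAPBP, by 0.51 ± 0.0981 (adjusted p = 0.00828), and NLRC5, by 0.42 ± 0.107 (adjusted p = 0.0255). TAPBP at 48 h passed in 12 of 12 fits that left out 1 library. TAPBP at 24 h passed in 3 of 12 (adjusted p up to 0.107), those without control droplet replicate 3, control 24 h replicate 1 or MMP14-KO 24 h replicate 3. NLRC5 at 48 h passed in 5 of 12 (adjusted p up to 0.0865) and was lost without control droplet replicate 1 or 2, MMP14-KO droplet replicate 1 or 3, control 48 h replicate 2 or 3, or MMP14-KO 48 h replicate 2. The other differences, among them HLA-B at 24 h (-0.32 ± 0.147, adjusted p = 0.193) and HLA-F at 48 h (0.48 ± 0.223, adjusted p = 0.191), did not pass. At 24 h HLA-B passed without control droplet replicate 3 (adjusted p = 0.021) and without the low-count filter (0.00291), and NLRC5 (0.32 ± 0.107, adjusted p = 0.0716) passed without control 24 h replicate 1 (0.39, adjusted p = 0.0172).

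Compared per kilobase of annotated exon, the level of each member in control droplets was 332 CPM per kb for HLA-B, 252 for B2M, 220 for HLA-E, 134 for HLA-C, 108 for TAPBP, 42 for TAP1, 31.8 for TAP2, 3.79 for HLA-F and 2.65 for NLRC5. In control spheroids at 48 h, HLA-B was at 186, B2M at 169, HLA-E at 163, HLA-C at 80.4, TAP2 at 37.7 and TAP1 at 27.2 CPM per kb. At the same time HLA-F was at 1.14 and NLRC5 at 1.74 CPM per kb. The length used is the union of all annotated exons, 3.05 kb for HLA-B, 6.08 for B2M, 4.80 for TAP1 and 6.39 for TAP2. The longest coding transcripts of these genes hold 1547, 1705, 2959 and 5684 bases. The order between genes therefore depends on the length used and is not an order of transcript numbers. The span from the highest to the lowest of the 6 group means was 3.35-fold for HLA-F, 2.4-fold for TAPBP, 1.96-fold for TAP1, 1.83-fold for HLA-B, 1.7-fold for HLA-C and between 1.5-fold and 1.52-fold for the other four.

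The order of the 6 groups was not the same for all members. For HLA-B, HLA-F and B2M both droplet groups led and overlapped each other, and for HLA-C, with the same leaders, they overlapped too. For TAP1, TAPBP and HLA-E, control droplets stood alone above MMP14-KO droplets. Among the collagen groups, those of HLA-E, B2M and TAPBP overlapped each of their neighbours in order, as did the 3 lowest groups of HLA-B and of HLA-C. For TAP2 all 3 control groups ranked above all 3 MMP14-KO groups, and for NLRC5 the MMP14-KO collagen groups ranked above both control collagen groups with no overlap.

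Over the 18 libraries, HLA-B correlated with HLA-C and HLA-E with TAP1 at r = 0.98 (Pearson, log2 CPM), and TAP2 correlated with the other 8 members at between -0.69 (NLRC5) and 0.15 (TAP1). These points share libraries, groups and the scaling and are a description. The genes whose level most resembled the mean standardised level of the 9 members over the 18 libraries, among 11354 genes of at least 5 CPM, included RAB31 (r = 0.98), a small GTPase of vesicle transport, NUCB1 (0.979), a calcium-binding Golgi protein, and BST2 (0.972), an interferon-induced membrane protein also called tetherin. GBP3 (0.967), an interferon-inducible GTPase, CTSS (0.966), a lysosomal cathepsin, and MYDGF (0.965), a secreted protein, were also among them. CTSS had a mean of 39.3 CPM in control droplets and 11.1 CPM at 48 h, and BST2 of 224 and 143 CPM. In all, 247 genes reached an r of 0.9.

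The other genes of the pathway were read from 7 lists. Of 7 genes for folding, editing and trimming in the endoplasmic reticulum, 0 rose and 6 fell in control spheroids at 24 h (median -0.60) and 0 rose and 7 fell at 48 h (median -0.67), where 28.7% and 27.5% of all tested genes fell. In MMP14-KO spheroids 6 fell and 0 rose at both times, against 25.7% and 23.6% of all tested genes that fell. CALR, the chaperone that holds class I heavy chains in the loading complex, went from 1971 ± 103 CPM in control droplets to 1294 ± 34.7 at 24 h and 1113 ± 39 at 48 h (-0.61 ± 0.0628 and -0.82 ± 0.063). ERAP1, an aminopeptidase that trims peptides, fell by 0.64 ± 0.0587 at 24 h in control and by 0.67 ± 0.0588 in MMP14-KO spheroids. Its relative ERAP2 fell in control spheroids (-0.60 ± 0.0896, adjusted p = 5.75e-06) and not past the threshold in MMP14-KO spheroids (-0.07 ± 0.0888, adjusted p = 0.567), and the difference of these changes passed (0.53 ± 0.126, adjusted p = 0.0151). TAPBPL, a tapasin-like peptide editor, fell by 0.86 ± 0.187 in control spheroids at 24 h from 5.32 CPM.

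Of 6 genes of the immunoproteasome and its activator, 5 fell and 0 rose at both times in both genotypes, beside those same shares of all genes, the exception being the assembly factor POMP. PSMB10, an inducible catalytic subunit, fell from 45.9 ± 2.05 CPM in control droplets to 15.2 ± 1.13 at 24 h (-1.60 ± 0.0914, adjusted p = 3.7e-12) and from 41.5 ± 2.92 to 16.5 ± 0.534 CPM in MMP14-KO spheroids (-1.34 ± 0.0915). PSMB9 and PSMB8, the other inducible subunits, both encoded beside the TAP genes, changed by -0.80 ± 0.0934 and -0.44 ± 0.0868 in control spheroids at 24 h, and PSME1, a subunit of the activator, by -0.51 ± 0.0712. The 3 subunits of the constitutive proteasome that these replace, PSMB5, PSMB6 and PSMB7, changed by between -0.13 and -0.06 in control spheroids at 24 h, and 0 of 3 were called by edgeR, with 1 at an unadjusted p under 0.05 and 1 called by DESeq2. In MMP14-KO spheroids at 24 h all 3 fell, by between 0.16 and 0.24 on the log2 scale. Between genotypes 0 of the 6 immunoproteasome genes passed with edgeR or DESeq2 in droplets, at 24 h or at 48 h, and 0, 0 and 1 of them had an unadjusted p under 0.05. Over all tested genes, 7.7%, 13.7% and 14.4% were higher and 9.7%, 15.7% and 15.1% lower. With 6 genes, a count of 0 is weak evidence beside such shares.

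The list of class I transcription factors holds activators and the polycomb subunits EZH2, EED and SUZ12, which are known to repress class I genes, so its counts mix both roles. In control spheroids at 24 h 8 of 18 fell and 4 rose, where 28.7% of all tested genes fell and 27.8% rose. In MMP14-KO spheroids 9 fell and 3 rose, against 25.7% and 25.5%. RFX5, a DNA-binding subunit of the RFX complex, fell by 0.71 ± 0.0504 in control spheroids, IRF1, an interferon-induced activator, by 0.59 ± 0.0648, and IRF9, the DNA-binding subunit of the interferon-activated STAT complex, by 0.99 ± 0.0805. EZH2 rose there by 0.92 ± 0.1 (adjusted p = 3.01e-07), EED by 0.62 ± 0.0616 and SUZ12 by 0.45 ± 0.0615. Between genotypes, at 48 h 3 of 18 were higher and 7 lower in MMP14-KO spheroids, where 14.4% of all tested genes were higher and 15.1% lower. The share higher is thus near that of all genes. STAT2 was higher there, at 102.5 ± 5.14 against 70.0 ± 3.43 CPM (0.55 ± 0.0646, adjusted p = 2.33e-06), as were IRF9 by 0.40 ± 0.083 and IRF1 by 0.23 ± 0.0662 (adjusted p = 0.0121). In droplets IRF1 was lower in MMP14-KO spheroids, at 91.8 against 106.2 CPM (-0.21 ± 0.0641, adjusted p = 0.0261). SUZ12 was lower at 48 h (-0.26 ± 0.0619, adjusted p = 0.00291).

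**Figure D5:**
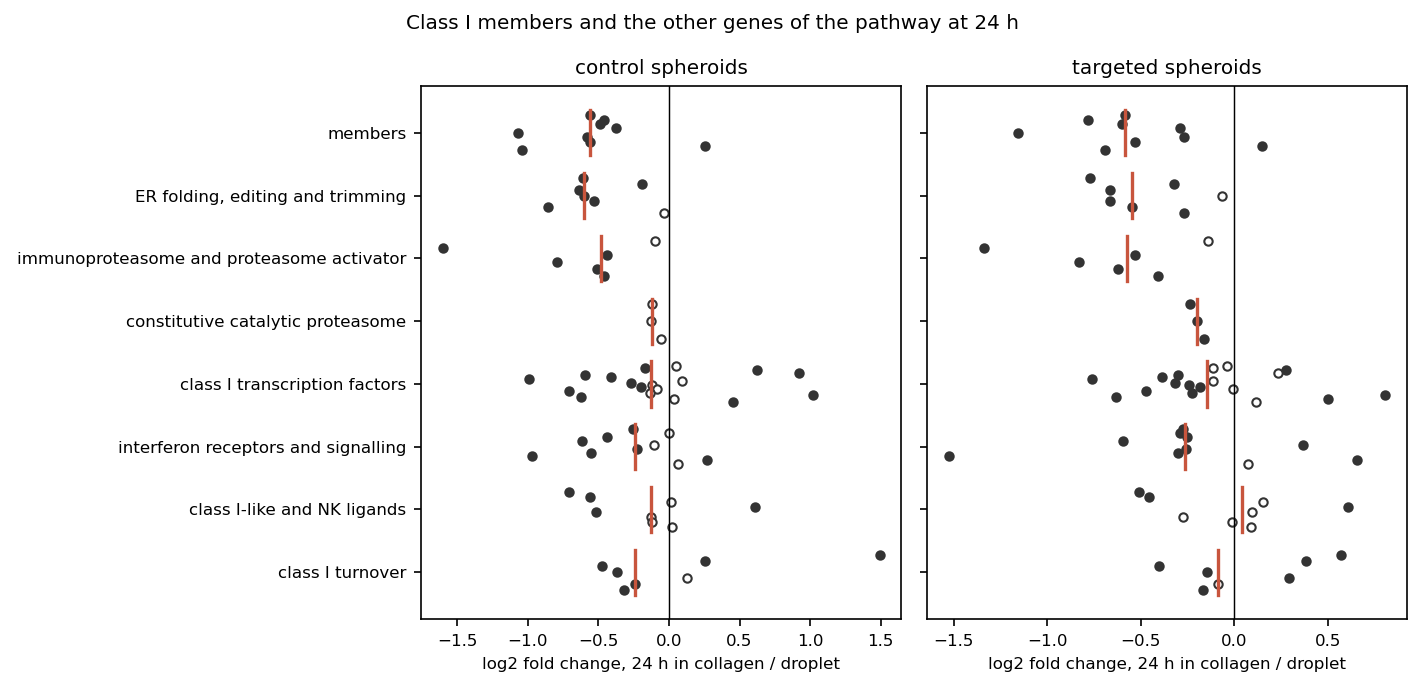
Change from droplets to 24 h in collagen for the 9 members and the tested genes of 7 pathway lists, in control (left) and targeted, MMP14-KO (right) spheroids. The horizontal axis is the log2 fold change from edgeR, each point is 1 gene, open points did not pass the threshold, and red bars are list medians. The members, the endoplasmic reticulum genes and the immunoproteasome genes have medians of -0.56, -0.60 and -0.485 on the left, and the constitutive proteasome a median of -0.12.

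Of 13 genes of interferon reception and signalling 10 were tested, and in control spheroids at 24 h 1 rose and 6 fell (27.8% and 28.7% of all tested genes), among them IFNGR2 (-0.61 ± 0.0791) and IFNGR1 (-0.44 ± 0.0781), which form the interferon-gamma receptor, and the kinase JAK2 (-0.55 ± 0.106). IFNG and IFNB1 had no read in any library, and IFNL1 had group means of at most 0.0833 CPM. In MMP14-KO spheroids at 24 h 7 of the 10 fell and 2 rose (25.7% and 25.5% of all tested genes), among the latter SOCS3, a feedback inhibitor of JAK kinases (0.65 ± 0.0982). Of 11 class I-like genes and natural killer ligands 8 were tested. Between genotypes 0 were higher and 3 lower in MMP14-KO droplets (7.7% and 9.7% of all tested genes). At 24 h 1 was higher and 3 lower (13.7% and 15.7%), and so at 48 h (14.4% and 15.1%). The one higher was MR1, which presents vitamin metabolites to T cells, at 17.7 ± 3.19 against 13.25 ± 0.374 CPM at 24 h (0.42 ± 0.147, adjusted p = 0.0394) and 16.7 ± 3.43 against 11.9 ± 1.91 CPM at 48 h (0.48 ± 0.151, adjusted p = 0.0222). MICA, MICB and ULBP3, stress-induced ligands of the receptor NKG2D, were lower in MMP14-KO than in control spheroids in all 3 conditions. In droplets MICA was at 28.4 ± 0.529 against 39.1 ± 3.81 CPM (-0.47 ± 0.0703, adjusted p = 5.55e-05) and MICB at 30.0 ± 0.89 against 39.2 ± 1.45 CPM (-0.39 ± 0.054). MICB rose in collagen, by 0.61 ± 0.0524 in control and 0.61 ± 0.0538 in MMP14-KO spheroids at 24 h. FCGRT, the class I-like receptor of IgG that pairs with B2M, fell by 0.71 ± 0.111 in control spheroids. Of 7 genes that act in class I turnover, 2 rose and 4 fell in control spheroids at 24 h, against 27.8% and 28.7% of all tested genes. MARCHF4, a membrane ubiquitin ligase that can remove class I from the cell surface, rose from 3.72 ± 0.44 to 10.4 ± 1.64 CPM (1.49 ± 0.147, adjusted p = 1.56e-08), and NBR1, an autophagy receptor, fell by 0.48 ± 0.0501. SUSD6, part of a complex that sends class I to degradation, was lower in MMP14-KO than in control droplets (-0.33 ± 0.0569, adjusted p = 0.000282).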

How the data were processed

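Expression was measured by polyA RNA-seq with 151-base read pairs in 18 libraries of 6 groups, assigned from the genotype and treatment labels. The authors deposited expected counts per gene, all of them whole numbers. Per the submitters' processing notes, the tools were cutadapt 2.3, FastQC 0.11.8, STAR 2.7.8a, RSEM 1.3.3, MultiQC 1.7 and DESeq2 1.42.0 on GRCh38. No annotation release or strand setting is given in the sources used here.

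The counts entered edgeR 4.0.16 (limma 3.58.1, R 4.3.3): filterByExpr on the 6 groups (minimum count 10), TMM scaling, 1 coefficient per group over all 18 libraries (12 residual degrees of freedom), quasi-likelihood tests of 11 contrasts, and Benjamini-Hochberg adjustment within a contrast over 17030 genes at 0.05. An SE is the absolute log2 fold change over the square root of the F statistic. Levels are CPM with TMM factors, and 1 read was worth at most 0.0496 CPM. The table's 4 rows for reporter and recombinase sequences, which name no gene of the genome, held 0 counts and were left out. Tested on simulated data for the 24 h genotype comparison (16680 genes), the script called 59 of 67 genes changed 1.5-fold, 67 of 67 changed 2-fold, 65 of 66 changed 4-fold and 3 of 16480 unchanged genes.

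The members and the lists were chosen with earlier results of these data known. Besides the members and MMP14, list genes were named for the size of their log2 fold change (at most 4 in each list and comparison, past the threshold, with 5 CPM or more in the higher group) and could be given values in other comparisons. The 8 genes most like the members were taken by correlation. Some genes that these rules take are not reported here. IFNG, IFNB1, IFNL1, CD3E, PTPRC and POMP were named after their values were seen. Positions and exon lengths come from GENCODE 29, matched by Ensembl identifier. Alternatives were library-size scaling, DESeq2 size factors, DESeq2, no low-count filter, only the groups compared, the replicate number as a block, each library left out in turn, and TAP2 summed with its overlapping row.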

Additional observations from a re-analysis of the deposited data

Results flagged for a closer look

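For 16 results the change from droplets to collagen differed between genotypes in edgeR's interaction test, at an adjusted p below 0.05, among the members and the genes of the pathway lists with at least 5 CPM. Over all tested genes, 3.32% were more positive in MMP14-KO spheroids and 4.09% more negative at 24 h, and 4% and 2.78% at 48 h. At 24 h and 48 h, 1 and 2 of 9 members passed, 5 and 3 of 18 transcription factors, and 1 and 2 of 7 turnover genes. Of 7 endoplasmic reticulum genes 1 passed at each time, and no gene of the other lists did. Only the members were refitted with libraries left out, where TAPBP at 24 h passed in 3 of 12 fits. Values are the log2 change in MMP14-KO spheroids minus that in control spheroids, with SE. For the change to 24 h they were 0.351 ± 0.098 for TAPBP, 0.534 ± 0.126 for ERAP2, 0.468 ± 0.0902 for STAT2 and 0.234 ± 0.0711 for RFX5. Values were negative for EZH2 (-0.688 ± 0.142), EED (-0.343 ± 0.0875), SUZ12 (-0.336 ± 0.087) and MARCHF4 (-0.92 ± 0.208).

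For the change to 48 h they were 0.505 ± 0.0981 for TAPBP, 0.416 ± 0.107 for NLRC5, 0.492 ± 0.128 for ERAP2, 0.529 ± 0.0909 for STAT2, 0.438 ± 0.0921 for IRF1 and 0.369 ± 0.0813 for SUSD6. They were negative for MARCHF4 (-0.78 ± 0.212) and SUZ12 (-0.3 ± 0.0874). TAPBP, ERAP2, STAT2, MARCHF4 and SUZ12 passed at both times, which share the droplet libraries.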

How the results depend on the processing

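Of 1395 recomputed log2 fold changes of members, 1326 kept their side of the threshold, 61 lost the call, 8 gained it and 0 reversed while called. Direction was compared only where a fit made a call. Values without a call could change sign, as B2M did between genotypes in droplets (-0.053 to 0.093). The cause of each change below was not tested, except that fits that leave out a library hold fewer samples. With library-size scaling 3 members passed between genotypes at 24 h (7 with TMM). Without the low-count filter 2 members and 2046 genes passed in the 24 h interaction (1 and 1262 with the filter), 2110 genes in the 48 h interaction (1156) and 1101 genes from 24 h to 48 h in MMP14-KO spheroids (648). DESeq2 called 1758 genes in the 48 h interaction. TAP2 lost its rise at 48 h in MMP14-KO spheroids without the filter (adjusted p = 0.0873) and with only the groups compared (0.0825), where TAPBP lost its genotype difference at 24 h (0.0608).

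Leaving out 1 library at a time gave 0 to 2 members and 414 to 1953 genes in the 24 h interaction, 1 to 2 members and 316 to 1977 genes in the 48 h interaction, and 2 to 6 members between genotypes at 24 h. It gave 0 to 2 members and 1349 to 2027 genes from 24 h to 48 h in control spheroids (2 and 2248 with all libraries), 324 to 854 genes for that step in MMP14-KO spheroids, and 1959 to 2949 genes between genotypes in droplets (2964).

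Deviations from the group means correlated at a median of 0.007 between libraries of the same replicate number (-0.07 to 0.137 over 45 pairs). Between libraries of different number the median was -0.003 (-0.144 to 0.114). Whether libraries of the same number shared a culture or preparation was not tested, and these medians cannot show it. With the number as a block, more genes passed in every contrast, among them 1782 in the 24 h interaction (1262 without the block) and 1838 in the 48 h interaction (1156). HLA-B lost its call at 24 h between genotypes (adjusted p = 0.0663). No other member's call changed. No member's symbol repeats, so the planned sum over repeated symbols gave no other value.

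Depth limits HLA-F most: its lowest group mean was 4.95 CPM (control 48 h), where 1 read was worth up to 0.0432 CPM.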
